A study of Homo sapiens with 18 samples.

Results

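The 42 genes described here encode proteins that start, drive and feed DNA replication in S phase. They were chosen by symbol from a fixed list, and all 42 were found among the 31004 genes counted in each library. All 42 had enough reads to be tested in every comparison. RNA was sequenced from HCT116 cells, a human line grown from a colorectal carcinoma, in 18 libraries forming 6 groups of 3 biological replicates. The cells were transduced with a lentiviral vector carrying GFP and puromycin resistance, with an empty insert (Ctrl), the long noncoding RNA CRLM1 (CRLM1) or its antisense sequence (Antisense). Each of these 3 backgrounds also received either an HNRNPK expression construct (hnRNPK) or the negative control (NC). The labels give that construct as a cDNA in the pTSB vector and the methods of the study give a different plasmid, so its vector is uncertain. This gave Ctrl_NC, CRLM1_NC, Antisense_NC, Ctrl_hnRNPK, CRLM1_hnRNPK and Antisense_hnRNPK. hnRNPK is a protein that binds RNA and single-stranded DNA.

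Replication begins in G1, when the origin recognition complex, CDC6 and CDT1 load the ring-shaped MCM2-7 helicase onto DNA. Cyclin E and E2F activity then carry cells into S phase, where CDC45 and the GINS complex switch the helicase on, primase and polymerase alpha lay down primers, and polymerases delta and epsilon copy the strands behind the PCNA clamp. Most of these genes are known targets of E2F transcription factors, and in tumour lines their RNA is commonly read as a sign of cycling cells. Many of the proteins act as fixed-ratio subunits of one complex.

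Total counts per library ran from 19732681 to 27039520. The lowest count of a member in any library was 30, for POLE2. Levels of one gene are given as CPM (counts scaled by TMM to a common library size), and FPKM, which also divides by exon length, is used where genes are compared with each other. The HNRNPK level was 471 ± 8.73 CPM (SD, n = 3) in Ctrl_NC, and 626 and 656 CPM in the first and second Ctrl_hnRNPK libraries, but 490 CPM in the third. The third CRLM1_hnRNPK library had 581 CPM of HNRNPK against 677 and 717 CPM in the other two, with 457 ± 4.09 CPM in CRLM1_NC. The HNRNPK transcript has a GC content of 41.6%, within the range of the members that were higher with the construct, described below. Whether the added reads came from the construct was not tested. In FPKM, HNRNPK read 165, 174 and 172 in Antisense_hnRNPK against 110 to 114 in Antisense_NC. On that scale it read 171, 183 and 125 in CRLM1_hnRNPK against 108 to 110 in CRLM1_NC, and 153, 166 and 111 in Ctrl_hnRNPK against 106 to 111 in Ctrl_NC. FPKM were not rescaled between libraries, so the size of a rise in FPKM cannot be set against one in CPM. Over all genes the third Ctrl_hnRNPK and CRLM1_hnRNPK libraries correlated with their own group at no more than 0.965 (Ctrl) and 0.960 (CRLM1). With the NC libraries of their background they correlated at 0.984 or above and at 0.980. The study left both out of its comparisons. That choice rests on the outcome, so values with all libraries and values without the third library are both given here. A mislabelled library and a failed construct cannot be told apart from these files. Reads at the CRLM1 gene were 0 CPM in the Ctrl groups, 598 ± 11.7 CPM in CRLM1_NC and 49.3 ± 0.565 CPM in Antisense_NC. Epithelial markers were present (EPCAM 249 to 459 CPM, KRT8 862 to 3770 CPM), apart from VIL1, at most 0.786 CPM. CDX2 was low, at 2.39 to 16.3 CPM. DCN, COL1A2, PTPRC and PECAM1, markers of fibroblasts, leukocytes and endothelium, did not exceed 0.134 CPM, and COL1A1 lay between 11.2 and 32.3 CPM.

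The promoters of 6 genes are shown because these genes moved in opposite directions with the hnRNPK construct, before offsets for GC content, and each window holds letters that E2F factors are known to prefer. The motifs searched were TTTCCCGC, TTTCGCGC, TTTGCCGC and TTTGGCGC on both strands, with overlapping matches counted. Of the members, 36 had a RefSeq promoter, with 47 windows of 300 bases in all (250 before and 50 after the start). A match stood in 21 of the 47 windows (44.7%), in 20 of the 36 genes, against 1164 of 35116 windows (3.31%) of all genes. The lines below give the 200 bases before the start on RefSeq's GRCh38.p14 assembly, on the gene's strand, with matches in capitals. In fits without the offsets for GC content described below, MCM6, POLA1 and RFC3 were higher with hnRNPK, and MCM7, CDT1 and E2F1 lower. In the Ctrl and CRLM1 backgrounds they passed only without the third construct library. With the offsets CDT1 alone among the 6 kept its call in all 3 backgrounds, and MCM7 turned to higher in the CRLM1 background.
MCM6, chr2:135876444-135876643, minus strand: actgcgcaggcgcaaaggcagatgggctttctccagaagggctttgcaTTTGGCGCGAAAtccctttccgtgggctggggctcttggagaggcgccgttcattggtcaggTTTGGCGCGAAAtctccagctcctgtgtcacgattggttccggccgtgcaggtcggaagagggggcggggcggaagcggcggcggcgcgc
POLA1, chrX:24693718-24693917, plus strand: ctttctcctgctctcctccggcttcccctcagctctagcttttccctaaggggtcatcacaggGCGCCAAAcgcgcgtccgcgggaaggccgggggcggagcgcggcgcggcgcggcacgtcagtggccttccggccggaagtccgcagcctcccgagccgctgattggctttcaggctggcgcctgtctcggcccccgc
RFC3, chr13:33817949-33818148, plus strand: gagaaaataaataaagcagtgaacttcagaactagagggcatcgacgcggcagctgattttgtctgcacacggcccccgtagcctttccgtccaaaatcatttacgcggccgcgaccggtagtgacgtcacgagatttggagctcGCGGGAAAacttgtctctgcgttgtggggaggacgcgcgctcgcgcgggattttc
MCM7, chr7:100101398-100101597, minus strand: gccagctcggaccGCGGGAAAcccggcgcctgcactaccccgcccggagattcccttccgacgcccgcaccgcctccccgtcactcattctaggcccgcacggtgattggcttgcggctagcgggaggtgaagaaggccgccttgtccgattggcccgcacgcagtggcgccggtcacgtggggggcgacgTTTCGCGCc
CDT1, chr16:88803589-88803788, plus strand: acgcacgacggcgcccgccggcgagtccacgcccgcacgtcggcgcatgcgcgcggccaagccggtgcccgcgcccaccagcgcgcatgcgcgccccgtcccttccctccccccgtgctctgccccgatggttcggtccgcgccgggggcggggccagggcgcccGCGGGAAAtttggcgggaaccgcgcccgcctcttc
E2F1, chr20:33686386-33686585, minus strand: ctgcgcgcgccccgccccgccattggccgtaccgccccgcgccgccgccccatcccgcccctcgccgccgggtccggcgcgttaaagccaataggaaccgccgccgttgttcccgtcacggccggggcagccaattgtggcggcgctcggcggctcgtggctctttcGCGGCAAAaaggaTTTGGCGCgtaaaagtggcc
A match is a description of the letters in the window, and binding was not measured here.

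In Ctrl_NC the 42 genes spanned a wide range of levels per length. TK1, the thymidine salvage kinase, was highest at 153 ± 1.88 FPKM (SD, n = 3), followed by TYMS, thymidylate synthase, at 84.6 ± 2.19 FPKM and the helicase subunit MCM7 at 84.5 ± 2.40 FPKM, which did not differ beyond their spread. RRM2, the regulated subunit of ribonucleotide reductase, stood at 75.7 ± 1.12 FPKM and CDT1 at 70.3 ± 2.04 FPKM. The lowest were the checkpoint adaptor CLSPN at 1.30 ± 0.185 FPKM and POLE2, an accessory subunit of polymerase epsilon, at 0.647 ± 0.112 FPKM. The subunits of MCM2-7 were not at one level. MCM7 was followed by MCM2 at 42.6, MCM4 at 33.6, MCM3 at 32.5, MCM5 at 27.3 and MCM6 at 7.98 FPKM. The TMM-scaled CPM of the 42 genes summed to 4009.8, 3961.1 and 3985.4 in Ctrl_NC and 4087, 4013.9 and 4008 in CRLM1_NC. In Antisense_NC the sums were 3797.7, 3736.9 and 3789.6. They were 3408.4, 3342.6 and 4125.4 in Ctrl_hnRNPK, 3790.4, 3945.8 and 4429.3 in CRLM1_hnRNPK and 3528.6, 3213.9 and 3355.6 in Antisense_hnRNPK. TMM-scaled CPM do not add up to the same total in each library, so these sums are not shares of the reads. The members held 72882 of 19825572 raw counts in the first Ctrl_NC library and 94216 of 22579193 in the first Antisense_hnRNPK library. The raw share was thus larger in the latter, where the CPM sum was smaller. In bulk RNA the fraction of cells in S phase and the RNA per cell cannot be told apart.

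**Figure D1:**
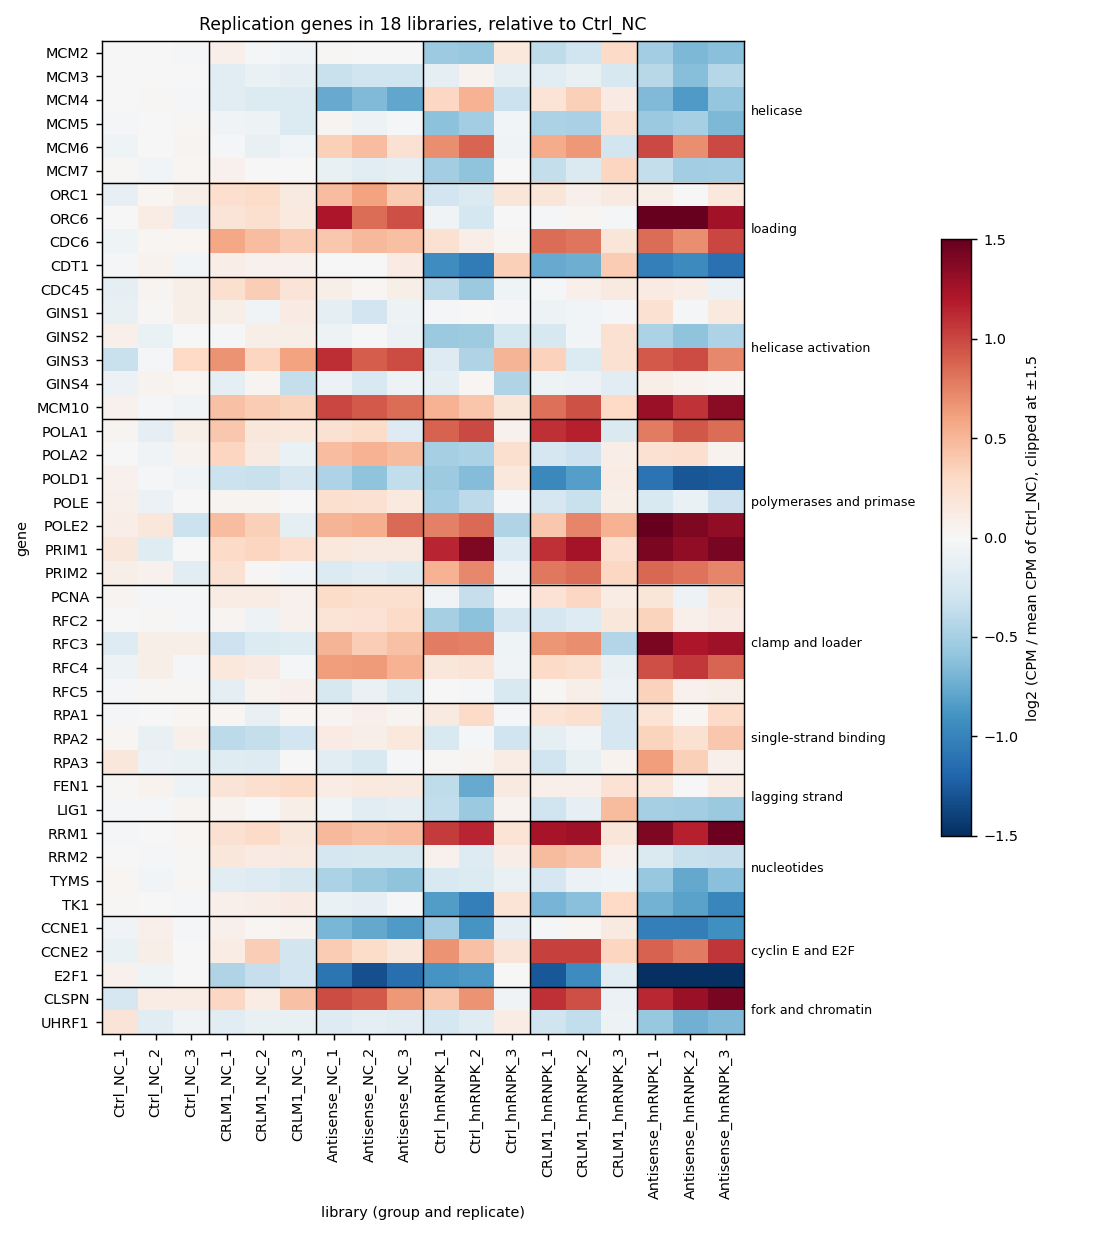
Each row is 1 of the 42 genes, grouped by role, and each column 1 of the 18 libraries. Colour gives log2 of CPM over the mean of Ctrl_NC, clipped at ±1.5. Within the first and second Ctrl_hnRNPK and CRLM1_hnRNPK libraries and in all 3 Antisense_hnRNPK libraries MCM6, PRIM1 and RRM1 are above and CDT1, TK1 and E2F1 below Ctrl_NC, while the third Ctrl_hnRNPK and CRLM1_hnRNPK libraries look unlike the others of their group.

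Replication genes differed in both directions with the antisense construct, about as often as genes in general. Between Antisense_NC and Ctrl_NC, 15 of 42 members were higher and 14 lower at an adjusted p of at most 0.05 (edgeR's quasi-likelihood test, Benjamini-Hochberg over all genes), where 34.4% of all 14389 genes tested were higher and 32.2% lower. The median log2 fold change was 0.022 over the members and -0.00246 over all genes. On the FPKM scale, which was not rescaled between libraries, limma gave 25 higher and 6 lower members, where 50.1% of 12593 genes were higher and 20.7% lower, with the median of all genes at 0.24 on the log2(FPKM + 0.1) scale. Small differences below are relative to the TMM scale. In mean FPKM, TK1 read 153 in Ctrl_NC and 166 in Antisense_NC, and MCM7 read 84.5 and 88.1. RFC5 (15.8 and 15.9) and PRIM2 (5.58 and 5.62) were about level, and CDT1 read 70.3 and 83.2. The lower calls of TK1, MCM7, RFC5 and PRIM2 below thus depend on the scale. E2F1, CCNE1, MCM4 and TYMS were lower in mean FPKM too. With 1 spread estimated over all 18 libraries 12 members and 32.5% of genes passed. The transcription factor E2F1 was the 1 member that also passed a 2-fold threshold, which 14.1% of all genes passed.

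Among the regulators of S-phase entry, E2F1 was counted at 84.4, 77.3 and 80.4 CPM in Ctrl_NC and at 37.9, 32.4 and 36.9 CPM in Antisense_NC. All Antisense_NC libraries lay below all Ctrl_NC libraries, with a log2 fold change of -1.21 ± 0.06 (SE) at an adjusted p of 2.71e-19. CCNE1, cyclin E1, read 39.8, 43.6 and 40.4 CPM in Ctrl_NC and 25.7, 24.2 and 23 CPM in Antisense_NC. The groups did not overlap here either (log2 fold change -0.80 ± 0.07, adjusted p = 6.21e-12). CCNE2, its paralogue, did not pass (0.24 ± 0.13, adjusted p = 0.103).

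The helicase subunits split. MCM4 had 202, 206 and 200 CPM in Ctrl_NC and 120, 128 and 118 CPM in Antisense_NC, with no overlap and a log2 fold change of -0.77 ± 0.04 (adjusted p = 9.61e-19). MCM3 (-0.34 ± 0.04) and MCM7 (-0.17 ± 0.03) were also lower. MCM6 was higher instead, with 40.9, 43 and 44 CPM in Ctrl_NC and 54.6, 58.8 and 49.8 CPM in Antisense_NC (0.32 ± 0.06, adjusted p = 5.13e-05). MCM2 and MCM5 read -0.03 ± 0.04 and -0.06 ± 0.04 and did not pass.

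Of the 4 loading factors 3 were higher in Antisense_NC. ORC6, the smallest subunit of the origin recognition complex, went from 10.1, 10.9 and 9.32 CPM to 23.4, 18.1 and 19.7 CPM, a log2 fold change of 0.98 ± 0.11 (adjusted p = 7.15e-10). ORC1, its ATP-binding subunit, was higher by 0.45 ± 0.07, and CDC6, which helps ORC load the helicase, by 0.41 ± 0.05. CDT1, the other loader, was at 0.01 ± 0.04 and did not pass. In helicase activation, GINS3 rose from 4.40, 5.44 and 6.87 CPM to 12, 10.5 and 11 CPM (0.95 ± 0.14, adjusted p = 3.09e-07). MCM10, which joins the activated helicase at origins, rose from 18, 17 and 16.7 CPM to 34.5, 32.5 and 30.9 CPM (0.89 ± 0.08, adjusted p = 7.28e-12). For both genes every Antisense_NC library was above every Ctrl_NC library.

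At the fork, 4 of the 5 clamp and clamp loader genes were higher in Antisense_NC, namely PCNA, RFC2, RFC3 and RFC4, by 0.20 to 0.56 on the log2 scale, and RFC5 was lower (-0.22 ± 0.06). CLSPN, which relays the replication checkpoint signal to CHK1, went from 7.76, 10.0 and 9.99 CPM to 18.2, 17.5 and 14.5 CPM (0.81 ± 0.12, adjusted p = 1.76e-07), with no overlap. All 4 nucleotide supply genes passed. TYMS fell from 205, 195 and 202 CPM to 144, 136 and 132 CPM (-0.58 ± 0.04, adjusted p = 3.22e-15), and 47.9% of its exon bases are shared with genes on the opposite strand, so its reads are uncertain. RRM2 (-0.28 ± 0.03) and TK1 (-0.12 ± 0.03) were lower, and RRM1, the large subunit of ribonucleotide reductase, was higher (0.43 ± 0.05). None of the 3 subunits of RPA, which coats single-stranded DNA, passed. Among the polymerases POLD1 (-0.51 ± 0.05) and PRIM2 (-0.22 ± 0.09) were lower, and POLA2 (0.45 ± 0.08), POLE (0.17 ± 0.05) and POLE2 (0.60 ± 0.23) were higher.

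CRLM1 overexpression gave smaller differences. Between CRLM1_NC and Ctrl_NC 10 of 42 members were higher and 7 lower, where 16.9% of 14459 genes were higher and 17.4% lower. The median log2 fold change was 0.038 over the members and 0.00593 over all genes, and limma on FPKM gave 13 higher and 5 lower, where 22.8% of 12419 genes were higher and 12% lower. With the 2-fold threshold, which 1.58% of all genes passed, 0 members were called, and 22 members had an unadjusted p under 0.05, as had 42.6% of all genes. The higher members were GINS3, CDC6, MCM10, PRIM1, CDC45, FEN1, RRM1, ORC1, RRM2 and TK1. The lower ones were E2F1, RPA2, POLD1, TYMS, MCM4, MCM3 and MCM5.

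CDC6 showed one of the clearest differences, with 64.2, 68.3 and 68.6 CPM in Ctrl_NC and 101, 92.6 and 87.3 CPM in CRLM1_NC. The groups did not overlap, and the log2 fold change was 0.46 ± 0.05 (adjusted p = 2.04e-09). GINS3 read 8.90, 6.99 and 8.49 CPM in CRLM1_NC (0.52 ± 0.16, adjusted p = 0.0101) and MCM10 read 23.3, 22.4 and 21.7 CPM (0.37 ± 0.09, adjusted p = 0.00113). PRIM1, the catalytic subunit of primase, read 17.5, 17.9 and 17.1 CPM against 16.1, 12.6 and 14.4 CPM in Ctrl_NC (0.28 ± 0.10, adjusted p = 0.0341). Each of these genes was higher in all CRLM1_NC libraries than in any Ctrl_NC library.

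Of the lower members, E2F1 read 58.9, 63.6 and 66.3 CPM in CRLM1_NC (log2 fold change -0.37 ± 0.05, adjusted p = 3.97e-07), between the levels of Ctrl_NC and Antisense_NC. RPA2 read 44.5, 45.9 and 48.1 CPM against 60.0, 54.1 and 61.7 CPM in Ctrl_NC (-0.36 ± 0.06, adjusted p = 8.11e-06). POLD1, the catalytic subunit of polymerase delta, read 130, 129 and 136 CPM against 170, 160 and 157 CPM (-0.32 ± 0.04, adjusted p = 3.38e-08), and TYMS was lower by -0.22 ± 0.04 (adjusted p = 7.20e-06). No group overlapped for these genes. None of the 5 clamp and loader genes passed. The calls of this comparison rest on the spread within its own 6 libraries, and 0 members and 0.651% of genes passed when 1 spread was estimated over all 18 libraries.

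Against the antisense control, CRLM1_NC had 15 members higher and 14 lower, where 26.9% of 14364 genes were higher and 29.5% lower. Medians were 0.047 over the members and -0.00338 over all genes. On the FPKM scale limma gave 5 higher and 19 lower, where 15.6% of 12571 genes were higher and 43.1% lower, with the median of all genes at -0.17 on the log2(FPKM + 0.1) scale. At 2-fold, which 7.18% of genes passed, 0 members were called, and 29 had an unadjusted p under 0.05, as had 60.3% of all genes. Higher in CRLM1_NC were E2F1 (0.84 ± 0.07, adjusted p = 2.11e-13), CCNE1 (0.84 ± 0.07, adjusted p = 2.80e-12), MCM4 (0.57 ± 0.04, adjusted p = 3.07e-14) and RRM2 (0.41 ± 0.03, adjusted p = 4.42e-13). RRM2 had 445, 432 and 437 CPM in CRLM1_NC and 335, 335 and 336 CPM in Antisense_NC. Lower in CRLM1_NC were ORC6 (-0.79 ± 0.11, adjusted p = 5.27e-08), RFC3 (-0.65 ± 0.09, adjusted p = 2.45e-07), CLSPN (-0.54 ± 0.11, adjusted p = 8.97e-05) and MCM10 (-0.51 ± 0.08, adjusted p = 9.28e-07). RFC3, a subunit of the clamp loader, had 13.7, 14.8 and 15 CPM in CRLM1_NC against 24.3, 22.0 and 23.1 CPM in Antisense_NC, with no overlap. With 1 spread over all 18 libraries 7 members and 15% of genes passed. This comparison shares the CRLM1_NC or Antisense_NC libraries with the earlier ones, so its values are not separate evidence.

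**Figure D2:**
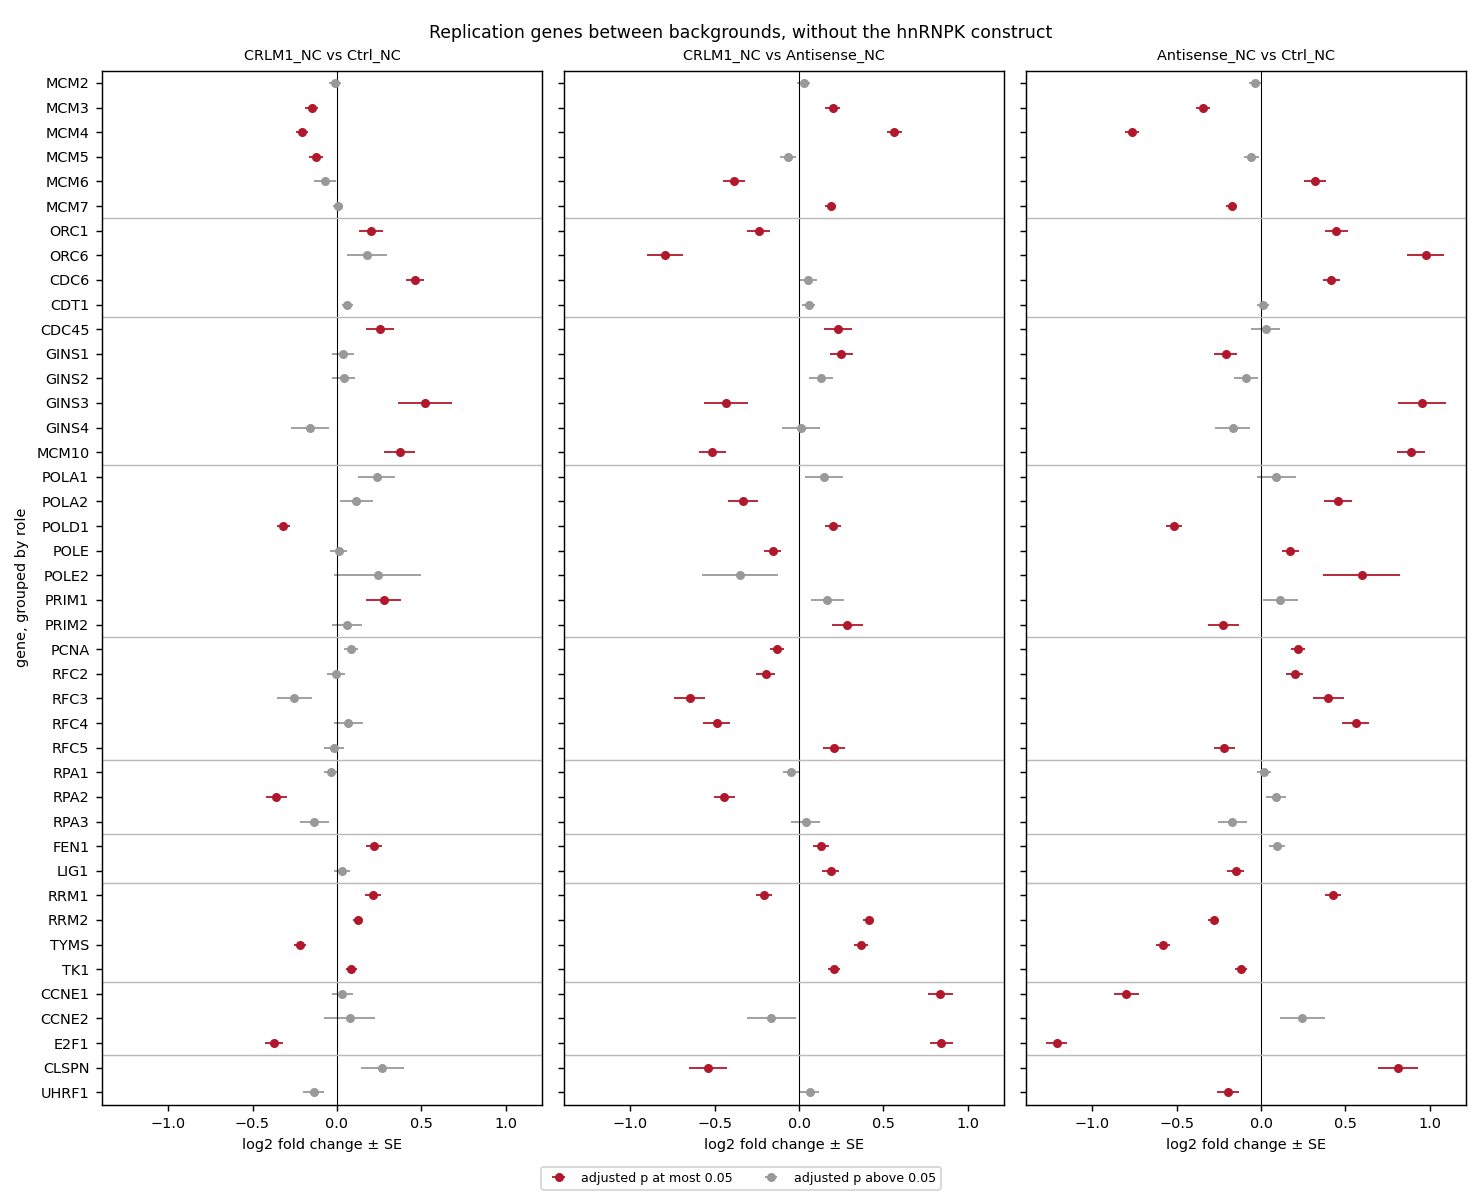
Points give the log2 fold change of each of the 42 genes with its SE (bars) between backgrounds without the hnRNPK construct (3 libraries a group), red where the adjusted p was at most 0.05. In the right panel E2F1, CCNE1, MCM4 and TYMS lie furthest to the left, and ORC6, GINS3, MCM10 and CLSPN furthest to the right.

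With the hnRNPK construct, genes of the same complex moved apart, in directions that followed the GC content of their transcripts, as described below. In the antisense background no construct library stood apart as the third ones of the other backgrounds did, although the 3 differed from each other by more than NC replicates (chi-square per degree of freedom 13 to 33.7, against 2.91 to 4.83 within NC groups and 113 to 157 between the third library and the others of Ctrl_hnRNPK and CRLM1_hnRNPK). There 17 of 42 members were higher and 15 lower than in Antisense_NC, where 33.4% of 14501 genes were higher and 30.5% lower. The median log2 fold change was -0.033 over the members and 0.040 over all genes. On the FPKM scale limma gave 22 higher and 8 lower, where 43.5% of 12929 genes were higher and 22.5% lower, with the median of all genes at 0.23 on the log2(FPKM + 0.1) scale. At 2-fold, passed by 13.4% of genes, PRIM1 was higher and CDT1 lower. In the Ctrl background 0 members passed with all libraries (0% of 14607 genes, edgeR, and 0 members by DESeq2 and by limma), with 8 members and 15.4% of all genes at an unadjusted p under 0.05. Without the third Ctrl_hnRNPK library 12 were higher and 19 lower, where 29.6% of 15004 genes were higher and 29.9% lower. PRIM1 and RRM1 were then above 2-fold, passed by 6.88% of genes. In the CRLM1 background 0 members passed with all libraries (0% of 14394 genes, edgeR, and 0 members by DESeq2 and by limma), with 5 members and 9.25% of all genes at an unadjusted p under 0.05. Without the third CRLM1_hnRNPK library 15 were higher and 12 lower, where 29.5% of 14685 genes were higher and 29.1% lower. RRM1 was then above 2-fold, passed by 5.30% of genes. In the third Ctrl_hnRNPK library all 31 of these members lay nearer to the mean of Ctrl_NC than to the other two libraries of the group, and in the third CRLM1_hnRNPK library 26 of 27 lay nearer to CRLM1_NC. The members were called on the difference between those other libraries and NC, and the third libraries resembled NC over all genes. These counts are therefore not separate evidence. Leaving out the third Antisense_hnRNPK library as well gave 15 higher and 16 lower, where 31% of genes were higher and 31.3% lower. The Ctrl and CRLM1 values that follow are those without the third library (2 construct against 3 NC libraries), and each paragraph then gives the values with all libraries, of which none passed by edgeR (the smallest adjusted p over the members was 0.320 for Ctrl_hnRNPK and 0.533 for CRLM1_hnRNPK).

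Taking the 3 backgrounds together, 9 members passed as higher in each (MCM6, MCM10, POLA1, PRIM1, PRIM2, RFC3, RRM1, CCNE2 and CLSPN) and 11 as lower in each (MCM2, MCM5, MCM7, CDT1, POLA2, POLD1, POLE, LIG1, TK1, E2F1 and UHRF1). Of the 13969 genes tested in all 3 backgrounds, 21.2% were higher in each and 22% lower in each. PCNA passed in opposite directions, lower in the Ctrl background (-0.20 ± 0.08, adjusted p = 0.0460) and higher in the CRLM1 background (0.20 ± 0.05, adjusted p = 0.00187). The other 21 passed in fewer than 3 backgrounds. Fitted with all libraries, the Ctrl and CRLM1 backgrounds gave PCNA values of -0.17 ± 0.17 and 0.15 ± 0.16.

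**Figure D3:**
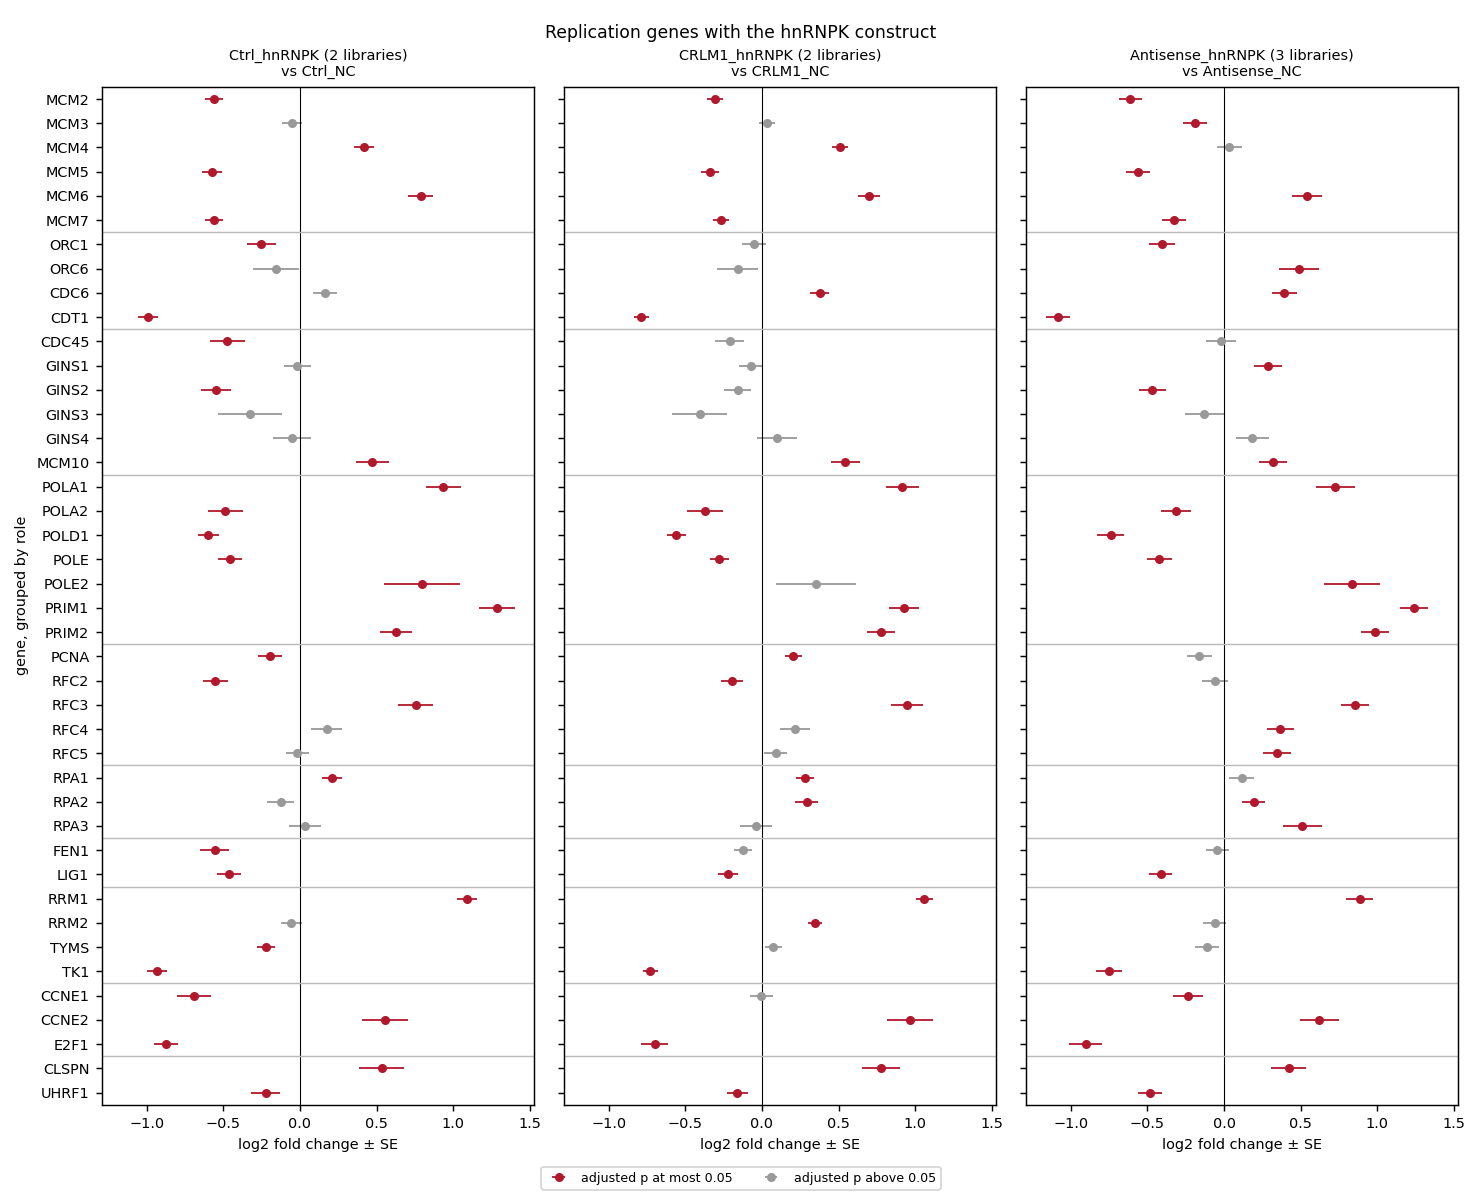
Points give the log2 fold change of each of the 42 genes with its SE (bars) for the hnRNPK construct in 3 backgrounds, red where the adjusted p was at most 0.05. The Ctrl and CRLM1 panels use 2 construct libraries and the Antisense panel 3, and in each panel MCM6 is right and MCM2, MCM5 and MCM7 are left of 0.

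MCM2-7 holds 1 copy of each subunit, and its genes did not move as one in the fits without offsets. With the GC and length offsets described below, only the helicase calls of MCM4 and MCM6 in the Ctrl and CRLM1 backgrounds were kept. MCM7 then turned to higher in the CRLM1 background. MCM6 read 69.2 and 78.3 CPM in the first and second Ctrl_hnRNPK libraries, but 41.0 CPM in the third. In CRLM1_hnRNPK it read 62.7, 67.0 and 35.1 CPM and in Antisense_hnRNPK 84.9, 69.4 and 84.6 CPM. All values except those of the third Ctrl_hnRNPK and CRLM1_hnRNPK libraries lay above their background's NC libraries, and the log2 fold changes were 0.79 ± 0.08, 0.70 ± 0.07 and 0.54 ± 0.10 in the Ctrl, CRLM1 and Antisense backgrounds (adjusted p = 2.31e-07, 2.17e-09 and 0.000183). MCM7 went the other way, with 307, 290 and 444 CPM in Ctrl_hnRNPK, 345, 381 and 550 CPM in CRLM1_hnRNPK and 345, 307 and 310 CPM in Antisense_hnRNPK, against 446, 427 and 449 CPM in Ctrl_NC. Its log2 fold changes were -0.56 ± 0.06, -0.27 ± 0.05 and -0.33 ± 0.08. MCM2 (-0.56, -0.31 and -0.61) and MCM5 (-0.57, -0.34 and -0.56) were lower with it. MCM4 was higher in the Ctrl (0.42 ± 0.06) and CRLM1 (0.51 ± 0.05) backgrounds and read 0.03 ± 0.08 in the Antisense background. In the fits with all libraries the Ctrl and CRLM1 values were 0.52 ± 0.23 and 0.46 ± 0.26 for MCM6, -0.38 ± 0.20 and -0.054 ± 0.19 for MCM7, -0.32 ± 0.22 and -0.085 ± 0.19 for MCM2, -0.41 ± 0.19 and -0.073 ± 0.21 for MCM5 and 0.18 ± 0.22 and 0.45 ± 0.16 for MCM4. Of the exon bases of MCM2 23.6% are shared with a gene on the opposite strand.

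Of the loading factors, CDT1 changed most. It read 171 and 157 CPM in the first and second Ctrl_hnRNPK libraries and 416 CPM in the third, against 322, 336 and 317 CPM in Ctrl_NC. It read 192, 196 and 422 CPM in CRLM1_hnRNPK against 349, 340 and 340 CPM in CRLM1_NC. In Antisense_hnRNPK it read 160, 168 and 150 CPM against 327, 326 and 353 CPM in Antisense_NC. The third Ctrl_hnRNPK and CRLM1_hnRNPK libraries were thus above every NC library while all others were below. For CDT1 the log2 fold changes were -0.99 ± 0.06, -0.79 ± 0.05 and -1.08 ± 0.08 (adjusted p = 1.97e-09, 1.17e-13 and 1.40e-07). CDC6 was higher in the CRLM1 (0.38 ± 0.06) and Antisense (0.39 ± 0.08) backgrounds, and ORC6 in the Antisense background only at 0.49 ± 0.13 (adjusted p = 0.00486), with -0.16 ± 0.15 and -0.16 ± 0.13 in the other two. Among the activating factors MCM10 was higher by 0.47, 0.54 and 0.32, and GINS2 was lower in the Ctrl (-0.55 ± 0.10) and Antisense (-0.47 ± 0.09) backgrounds. CDC45 was lower in the Ctrl background (-0.47 ± 0.12) and GINS1 higher in the Antisense background (0.29 ± 0.09). GINS3 and GINS4 passed in none of the 3 without offsets for GC content, which are described below. With these offsets no call of CDC6, MCM10 or CDC45 was kept. All libraries together gave Ctrl and CRLM1 values of -0.43 ± 0.34 and -0.33 ± 0.28 for CDT1, 0.083 ± 0.16 and 0.19 ± 0.22 for CDC6, 0.35 ± 0.17 and 0.37 ± 0.22 for MCM10, -0.48 ± 0.17 and -0.035 ± 0.18 for GINS2 and -0.36 ± 0.18 and -0.18 ± 0.17 for CDC45.

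Polymerase alpha and primase form one 4-subunit enzyme, of which POLA1, PRIM1 and PRIM2 were higher and POLA2 lower. PRIM1 read 31.8, 38.0 and 12.6 CPM in Ctrl_hnRNPK, 30.8, 34.2 and 17.2 CPM in CRLM1_hnRNPK and 38.1, 36.2 and 38.6 CPM in Antisense_hnRNPK, where Antisense_NC had 16.1, 15.8 and 15.7 CPM. Only the third Ctrl_hnRNPK and CRLM1_hnRNPK libraries reached down to NC levels. Its log2 fold changes were 1.28 ± 0.12, 0.93 ± 0.10 and 1.24 ± 0.09 (adjusted p = 6.25e-08, 3.33e-09 and 1.22e-07). Neighbouring genes cover 19.1% of the exon bases of PRIM1. PRIM2, the large primase subunit, was higher by 0.63 ± 0.11, 0.78 ± 0.09 and 0.99 ± 0.09, the last from 19.0, 19.7 and 19.0 CPM to 39.9, 38.5 and 36.4 CPM (adjusted p = 5.86e-07). POLA1, the catalytic subunit, was higher by 0.94 ± 0.12, 0.92 ± 0.11 and 0.73 ± 0.12. POLA2, its regulatory subunit, was lower by -0.49 ± 0.11, -0.37 ± 0.12 and -0.31 ± 0.10, and 21.3% of its exon bases are shared with other genes. With all libraries in the Ctrl and CRLM1 backgrounds the values were 0.90 ± 0.34 and 0.68 ± 0.28 for PRIM1, 0.40 ± 0.22 and 0.63 ± 0.21 for PRIM2, 0.66 ± 0.24 and 0.60 ± 0.35 for POLA1 and -0.24 ± 0.22 and -0.24 ± 0.20 for POLA2.

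Polymerase epsilon was split as well, though no call of POLE, POLE2 or POLD1 was kept with the GC and length offsets described below. Of the other genes in this paragraph, RFC3 and RPA1 kept their call in the CRLM1 background alone. RFC2 and FEN1 kept theirs in the Ctrl background alone, and LIG1 and RPA3 in none. The split between RFC3 and RFC2 was thus kept in no background. POLE, the catalytic subunit of polymerase epsilon, was lower by -0.45, -0.28 and -0.42, whereas its partner POLE2 was higher in the Ctrl (0.80 ± 0.25, adjusted p = 0.0103) and Antisense (0.84 ± 0.18, adjusted p = 0.00110) backgrounds, and read 0.35 ± 0.26 in the CRLM1 background. POLD1 read 111, 103 and 182 CPM in Ctrl_hnRNPK, 82.9, 91.6 and 176 CPM in CRLM1_hnRNPK and 75.2, 67.0 and 68.0 CPM in Antisense_hnRNPK, where Antisense_NC had 118, 107 and 126 CPM. The third Ctrl_hnRNPK and CRLM1_hnRNPK libraries exceeded their NC libraries, and the others lay below. Its log2 fold changes were -0.60 ± 0.07, -0.56 ± 0.06 and -0.74 ± 0.09 (adjusted p = 7.01e-07, 4.74e-09 and 4.11e-06). In the clamp loader RFC3 was higher by 0.76 ± 0.11, 0.94 ± 0.10 and 0.85 ± 0.09, with 45.2, 39.3 and 41.2 CPM in Antisense_hnRNPK, while RFC2 was lower in the Ctrl (-0.55 ± 0.08) and CRLM1 (-0.20 ± 0.07) backgrounds. LIG1, the ligase that seals Okazaki fragments, was lower by -0.46, -0.22 and -0.41. FEN1, the nuclease that trims them, was lower in the Ctrl background (-0.56 ± 0.10) and did not pass in the other two. RPA1 was higher in the Ctrl (0.21 ± 0.07) and CRLM1 (0.28 ± 0.06) backgrounds and RPA3 in the Antisense background (0.51 ± 0.13). With all libraries in the Ctrl and CRLM1 backgrounds the values were -0.34 ± 0.18 and -0.15 ± 0.17 for POLE, 0.46 ± 0.35 and 0.33 ± 0.25 for POLE2, -0.34 ± 0.23 and -0.16 ± 0.27 for POLD1, 0.50 ± 0.24 and 0.66 ± 0.31 for RFC3, -0.48 ± 0.16 and -0.069 ± 0.17 for RFC2, -0.31 ± 0.19 and 0.025 ± 0.21 for LIG1, -0.33 ± 0.22 and -0.086 ± 0.15 for FEN1 and 0.097 ± 0.16 and 0.14 ± 0.19 for RPA1.

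The 2 listed genes of ribonucleotide reductase also parted. RRM1 read 173, 184 and 96.6 CPM in Ctrl_hnRNPK, 197, 203 and 95.1 CPM in CRLM1_hnRNPK and 222, 188 and 233 CPM in Antisense_hnRNPK, against 81.9 to 85.5 CPM in Ctrl_NC, 94.5 to 102 CPM in CRLM1_NC and 113 to 118 CPM in Antisense_NC. The third CRLM1_hnRNPK library lay within the range of CRLM1_NC and the third Ctrl_hnRNPK library above that of Ctrl_NC, both far below the others of their group. Its log2 fold changes were 1.09 ± 0.06, 1.06 ± 0.05 and 0.88 ± 0.09 (adjusted p = 1.01e-09, 2.88e-15 and 9.42e-07). RRM2 passed in the CRLM1 background (0.35 ± 0.05, adjusted p = 1.65e-07), with -0.06 ± 0.07 in the Ctrl and -0.06 ± 0.08 in the Antisense background. TK1 read 210, 185 and 434 CPM in Ctrl_hnRNPK, 232, 244 and 465 CPM in CRLM1_hnRNPK and 230, 216 and 191 CPM in Antisense_hnRNPK, where the NC libraries ran from 345 to 411 CPM. In the third Ctrl_hnRNPK and CRLM1_hnRNPK libraries TK1 was above, and in the others below, every NC library. The log2 fold changes were -0.93 ± 0.07, -0.73 ± 0.05 and -0.75 ± 0.09 (adjusted p = 4.30e-09, 5.55e-13 and 3.96e-06). With all libraries in the Ctrl and CRLM1 backgrounds the values were 0.82 ± 0.24 and 0.79 ± 0.29 for RRM1, -0.042 ± 0.16 and 0.22 ± 0.18 for RRM2 and -0.49 ± 0.30 and -0.35 ± 0.25 for TK1.

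Of the S-phase entry genes, E2F1 read 43.6, 44.6 and 80.1 CPM in Ctrl_hnRNPK, 33.5, 42.1 and 72.1 CPM in CRLM1_hnRNPK and 20.8, 19.9 and 16.7 CPM in Antisense_hnRNPK. The last group held the lowest E2F1 values of all 18 libraries. The log2 fold changes against each background's NC libraries were -0.87 ± 0.08, -0.70 ± 0.09 and -0.90 ± 0.11 (adjusted p = 4.49e-08, 4.69e-08 and 6.01e-06). With the GC and length offsets described below E2F1 passed in the Ctrl background alone. The cyclin E genes moved oppositely in the Ctrl background, with CCNE1 lower (-0.69 ± 0.11, adjusted p = 3.12e-05) and CCNE2 higher (0.56 ± 0.15, adjusted p = 0.00393). They did so in the Antisense background too, where CCNE1 was lower by -0.24 ± 0.10. In FPKM, CCNE1 was not lower there, at 9.40 ± 0.546 in Antisense_NC and 9.48 ± 0.254 in Antisense_hnRNPK (SD). With the offsets the call of CCNE1 was kept in the Ctrl background alone and that of CCNE2 in none, so this split was not kept. CCNE2 was higher in the CRLM1 (0.96 ± 0.15, adjusted p = 2.68e-06) and Antisense (0.62 ± 0.13, adjusted p = 0.000623) backgrounds, although 37.1% of its exon bases are shared with genes on the opposite strand. CLSPN was higher by 0.53, 0.78 and 0.42, and UHRF1, which recruits the maintenance methyltransferase to replicated DNA, was lower by -0.22, -0.16 and -0.49. With the offsets the call of CLSPN was kept in the CRLM1 background alone and that of UHRF1 in none. With all libraries in the Ctrl and CRLM1 backgrounds the values were -0.56 ± 0.24 and -0.34 ± 0.26 for E2F1, -0.52 ± 0.20 and 0.029 ± 0.16 for CCNE1, 0.41 ± 0.20 and 0.77 ± 0.28 for CCNE2, 0.33 ± 0.22 and 0.49 ± 0.32 for CLSPN and -0.14 ± 0.18 and -0.086 ± 0.16 for UHRF1.

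**Figure D4:**
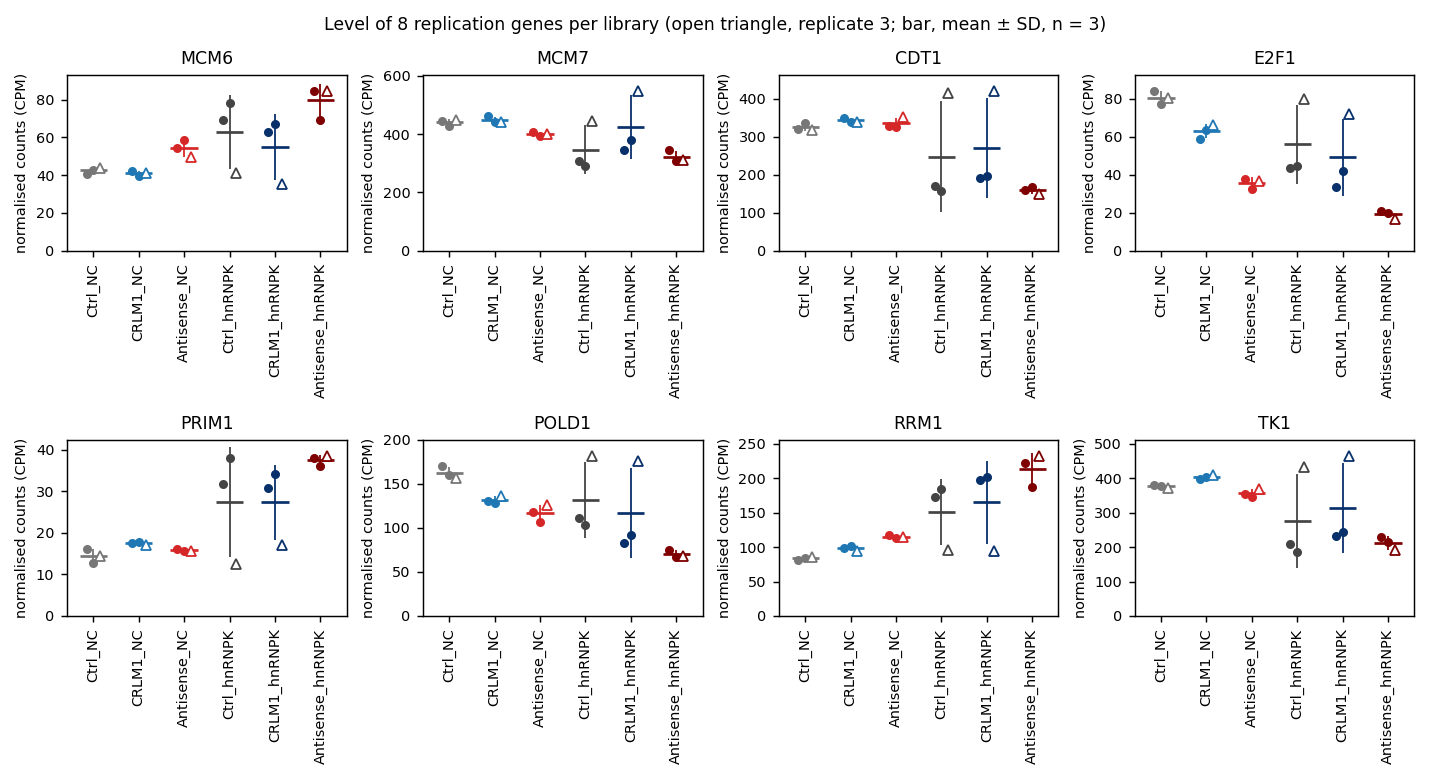
CPM of 8 genes in each library of the 6 groups, with the mean (horizontal bar) and SD (vertical bar, n = 3). Filled points are replicates 1 and 2, and open triangles replicate 3. CDT1 in the third Ctrl_hnRNPK library stands at 416 CPM against 171 and 157 CPM in the other two, and RRM1 at 96.6 CPM against 173 and 184 CPM.

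The direction of change with the hnRNPK construct followed the base composition of the transcripts. In Antisense_hnRNPK against Antisense_NC the 17 higher members had a median GC content of 43.6% (range 36.9% to 47.5%) and the 15 lower ones 56.6% (48.6% to 64.3%), so the ranges did not overlap. In the CRLM1 background the higher members had a median of 43.6% (36.9% to 47.1%) and the lower ones 57.2% (49.1% to 64.3%), again without overlap. In the Ctrl background the medians were 43.4% (36.9% to 47.1%) and 54.6% (45.3% to 64.3%), and the ranges overlapped. Spearman's rho between log2 fold change and GC content was -0.88, -0.83 and -0.87 across the 42 genes in the Ctrl, CRLM1 and Antisense backgrounds, and -0.74, -0.76 and -0.71 across all genes tested with a GC value. These are correlations across genes of the same libraries, and genes are not independent replicates. Between backgrounds without the construct rho across the members was -0.34 (CRLM1_NC against Ctrl_NC), 0.32 (CRLM1_NC against Antisense_NC) and -0.40 (Antisense_NC against Ctrl_NC).

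When each library's dependence on GC content and transcript length was removed as an offset in the fit, fewer members passed with the construct. In the Antisense background 4 were higher and 8 lower, where 19% of all genes were higher and 20.8% lower. In the Ctrl background there were 5 and 15 (11.6% and 13.5% of genes), and in the CRLM1 background 13 and 6 (15.3% and 11.9% of genes). Of the 32 members called before in the Antisense background 8 were called again in the same direction, namely PRIM1, PRIM2, RRM1 and ORC6 as higher and CDT1, GINS2, ORC1 and POLA2 as lower. In the Ctrl background 15 of 31 and in the CRLM1 background 13 of 27 were called again in their direction. In all 3 backgrounds 2 members were then higher, PRIM1 (0.90, 0.57 and 0.81) and RRM1 (0.73, 0.70 and 0.50), where 3.98% of genes were. Lower in all 3 were 4 members, CDT1 (-0.35, -0.16 and -0.38), POLA2 (-0.43, -0.35 and -0.28), GINS1 (-0.60, -0.62 and -0.31) and GINS3 (-0.68, -0.76 and -0.49), where 6.26% of genes were. GINS3 was called in none of the backgrounds without the offsets, and GINS1 only as higher in the Antisense background. RRM2 was newly lower in the Ctrl (-0.25 ± 0.07) and Antisense (-0.26 ± 0.07) backgrounds and stayed higher in the CRLM1 background (0.14 ± 0.04). MCM2 and MCM5 passed in none of the 3 with the offsets, and POLD1 read 0.0547 in the CRLM1 background. MCM6 kept 0.40 ± 0.08 and 0.32 ± 0.07 in the Ctrl and CRLM1 backgrounds, and MCM7 and LIG1 turned to higher in the CRLM1 background (0.17 ± 0.05 and 0.18 ± 0.06). PCNA passed as lower in the Ctrl (-0.48 ± 0.09) and Antisense (-0.48 ± 0.08) backgrounds. Between backgrounds without the construct the counts moved little. They were 10 and 8 (2349 and 2500 of 14459 genes) for CRLM1_NC against Ctrl_NC, 14 and 15 (26% and 27.2%) against Antisense_NC, and 18 and 12 (32.8% and 31.8%) for Antisense_NC against Ctrl_NC, with E2F1 at -1.04 ± 0.06 and MCM4 at -0.81 ± 0.04 for Antisense_NC against Ctrl_NC. Whether the trend with GC arose in the cells or in library preparation was not tested.

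**Figure D5:**
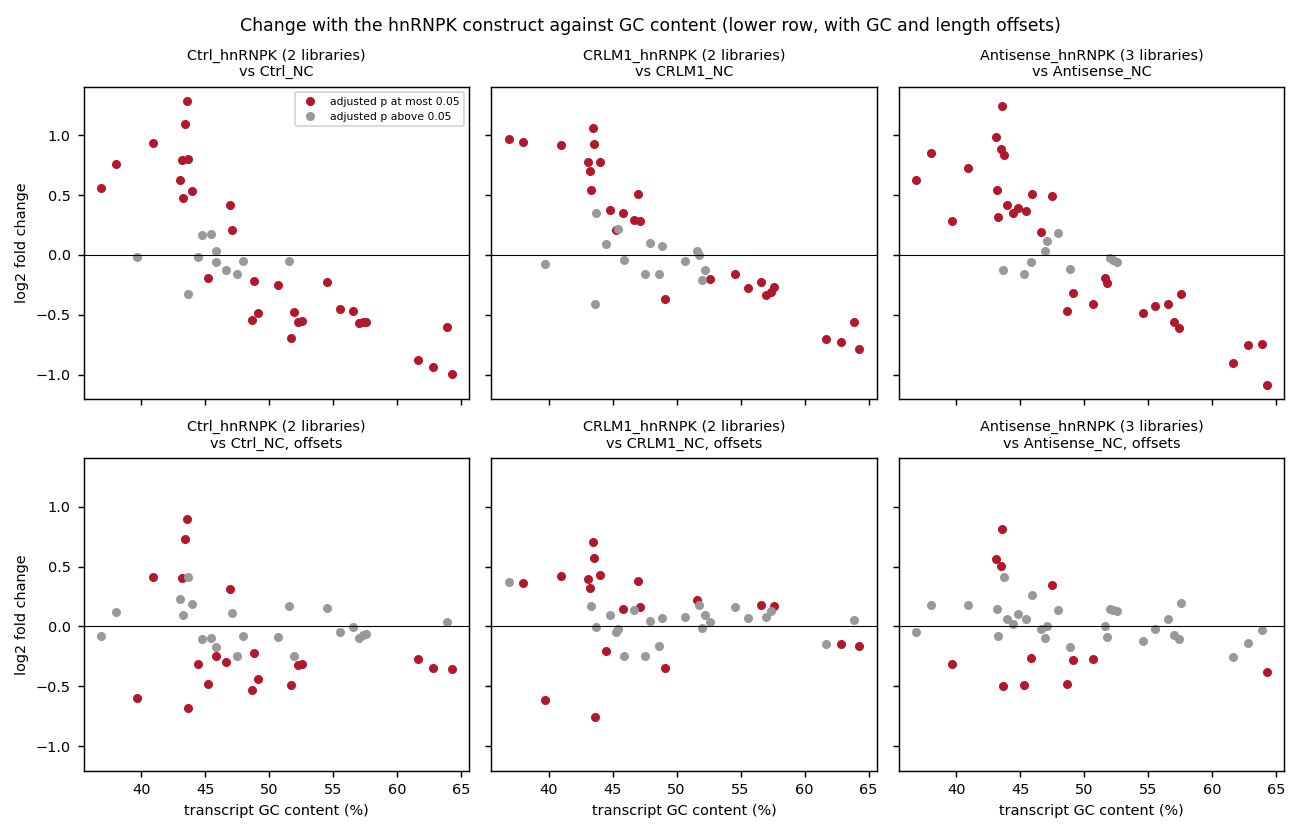
Log2 fold change of the 42 genes with the hnRNPK construct against the GC content of their transcripts (%), for 3 backgrounds (columns), without (upper row) and with (lower row) offsets for GC content and length. Red points had an adjusted p of at most 0.05. In the upper row the genes higher with the construct have at most 47.5% GC, and in the lower row PRIM1 and RRM1 stay among the highest.

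The hnRNPK effects in 2 backgrounds were also compared with each other by an interaction term. With all libraries 0 members passed for CRLM1 minus Ctrl (0% of 15188 genes, edgeR, with 0 members and 1.46% of genes at an unadjusted p under 0.05 and 0 members by DESeq2 and limma). For CRLM1 minus Antisense 0 members passed (1.12% of 15233 genes), with 6 members and 20.4% of genes at an unadjusted p under 0.05, 1 member by DESeq2 and 1 or 2 by limma at pseudocounts of 0.1 or 1. For Antisense minus Ctrl 0 members passed (0% of 15346 genes), with 6 members and 14.2% of genes at an unadjusted p under 0.05 and 0 members by DESeq2 and limma. With the third hnRNPK libraries of all backgrounds left out, a choice made after seeing the data, 9 members passed as higher and 0 as lower for CRLM1 minus Ctrl (3.36% and 0.0904% of genes). They were CCNE1, RRM2, PCNA, FEN1, RPA2, MCM7, TYMS, MCM2 and RFC2. For CRLM1 minus Antisense 7 were higher and 3 lower (17.3% and 9.23% of genes), and for Antisense minus Ctrl 6 were higher and 1 lower (6.58% and 9.47% of genes). ORC6 differed most in the last, by 0.75 ± 0.19 (adjusted p = 0.00784), and MCM4 was the 1 lower member (-0.45 ± 0.11, adjusted p = 0.00622).

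Other genes of the cell cycle set the members in context. A list of 34 further replication genes, such as ORC2 to ORC5, the CDC7 kinase and its activator DBF4, had 23 higher and 5 lower in Antisense_NC against Ctrl_NC (median log2 fold change 0.61), where the members had 15 and 14 (median 0.02). Of all genes tested 34.4% were higher and 32.2% lower. With GC and length offsets the further replication genes had 25 and 4 (median 0.38), where 32.8% and 31.8% of all genes passed. E2F8, a repressor of the E2F family, was higher by 1.84 ± 0.15 (adjusted p = 4.56e-13) and the proliferation marker MKI67 by 1.46 ± 0.08 (adjusted p = 9.82e-09), while the CDK inhibitor CDKN1C (-1.48 ± 0.05, adjusted p = 1.57e-24) and the histone-fold polymerase subunit POLE4 (-0.80 ± 0.12, adjusted p = 2.50e-07) were lower. Of 22 G2 and mitosis genes 14 were higher and 3 lower, and of 21 tested genes of G1/S control 10 and 8. In CRLM1_NC against Ctrl_NC the further replication genes had 7 higher and 2 lower, G2 and mitosis 9 and 2, and G1/S control 8 and 7. There 16.9% of all genes were higher and 17.4% lower. Against Antisense_NC the same lists had 3 and 23, 3 and 11, and 5 and 7 in CRLM1_NC, where 26.9% and 29.5% of all genes passed. With the construct the further replication genes had 19 higher and 8 lower in the Antisense background, 21 and 10 in the Ctrl background and 20 and 9 in the CRLM1 background. The shares of all genes, in the same order, were 33.4% and 30.5%, 29.6% and 29.9%, and 29.5% and 29.1%. ORC5 was higher by 1.41 ± 0.14 (Antisense) and the nuclease-helicase DNA2 by 1.25 ± 0.17 (Ctrl). Cyclin D3 (CCND3) was lower by -1.42 ± 0.12, -1.09 ± 0.10 and -0.91 ± 0.11 in the Antisense, Ctrl and CRLM1 backgrounds. With the GC and length offsets the further replication genes had 9 and 4, 10 and 6, and 12 and 4 in the same order. All genes then had 19% and 20.8%, 11.6% and 13.5%, and 15.3% and 11.9%.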

How the data were processed

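The authors prepared libraries from total RNA with the KAPA RNA HyperPrep kit, sequenced paired ends, and used FASTX-Toolkit for trimming and TopHat2 for alignment against GRCh38 and Gencode gene models, and deposited raw counts of uniquely mapped reads per gene. The deposited FPKM were calculated by the authors from the same libraries. Strand use in counting is not given in the sources used here. The submitters' processing notes also name bcl2fastq and edgeR, without versions.

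Counts were tested here in R 4.3.3 with edgeR 4.0.16 (TMM, filterByExpr, robust quasi-likelihood F-test, two-sided) on the libraries compared, adjusted by Benjamini-Hochberg across every gene tested, with a threshold of 0.05. Alternatives used DESeq2 1.42.0, limma 3.58.1 on log2(FPKM + 0.1 or 1), other scalings and filters, a replicate block, and offsets for GC content and length (natural splines with 5 degrees of freedom). The tests recovered known changes in simulated counts. These had the same small spread in every library and no library that stood apart, so they do not cover the hnRNPK groups as sequenced. CPM are scaled over all 18 libraries. GC content, lengths and exon overlaps came from Gencode version 44 on GRCh38, promoters from RefSeq. No columns were left unmapped. SD, SE and p-values describe the spread between 3 replicates, or 2 where the third library was left out, and reads carry no molecular identifiers.

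The members, the other gene lists and the tests were chosen with earlier results of these data known. All members are described. Full statistics go to members past the test whose log2 fold change is among the top 4 or bottom 4 of a comparison (for Ctrl_hnRNPK and CRLM1_hnRNPK, without the third library), and other members are given as values. MCM6, CCNE2, ORC6, POLE2, PCNA and RRM2 have an adjusted p beyond this rule in some comparisons, chosen after their values were seen. At most 2 genes in each direction come from the other lists.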

Additional observations from a re-analysis of the deposited data

Results flagged for a closer look

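The hnRNPK effect differed between backgrounds for the following members by the interaction test, in a fit that left out the third hnRNPK library of every background and was chosen after seeing the data. With all libraries 0 members passed any of the 3 interaction tests by edgeR.

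Between the CRLM1 and Ctrl backgrounds the log2 difference of effects was 0.72 for CCNE1 (adjusted p = 0.00248), 0.46 for FEN1 (adjusted p = 0.0189), 0.44 for RPA2 (adjusted p = 0.0263) and 0.43 for RRM2 (adjusted p = 0.00383). FEN1, the flap endonuclease of Okazaki fragments, read 64.5 and 49.8 CPM in the first 2 Ctrl_hnRNPK libraries and 88.8 and 88.3 CPM in those of CRLM1_hnRNPK, against 79.8 to 87.1 CPM in Ctrl_NC and 95.7 to 102 CPM in CRLM1_NC. CCNE1 read 28.8 and 22.4 CPM and 40.9 and 42.1 CPM in the same libraries.

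Between the CRLM1 and Antisense backgrounds the difference was -0.75 for ORC6 (adjusted p = 0.00186), -0.67 for RPA3 (adjusted p = 0.00125), -0.34 for GINS1 (adjusted p = 0.0478), 0.54 for MCM4 (adjusted p = 0.000140), 0.41 for PCNA (adjusted p = 0.00311), 0.39 for ORC1 (adjusted p = 0.0147) and 0.39 for RRM2 (adjusted p = 0.00110).

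Between the Antisense and Ctrl backgrounds it was -0.45 for MCM4 (adjusted p = 0.00622), 0.75 for ORC6 (adjusted p = 0.00784), 0.60 for RPA3 (adjusted p = 0.00904), 0.52 for RFC2 (adjusted p = 0.00394) and 0.51 for CDC45 (adjusted p = 0.0187). The tests share libraries, so these differences are not independent of each other.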

How the results depend on the processing

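The counts of members past the test moved with 2 libraries, with GC content and with fitting all libraries at once. Members called went from 0 to 31 (12 higher, 19 lower) without the third Ctrl_hnRNPK library and from 0 to 27 (15 and 12) without the third CRLM1_hnRNPK library; with GC content and length offsets added these became 20 and 19. In the Antisense background the offsets lowered 32 to 12, also with a replicate block, and to 14 without the third library. With no low-count filter 2 members passed in the Ctrl background. With a single fit of all libraries the counts fell to 0 (CRLM1_NC against Ctrl_NC), 7 (CRLM1_NC against Antisense_NC) and 12 (Antisense_NC against Ctrl_NC), where 0.651%, 15% and 32.5% of genes passed. Leaving out 1 library at a time gave 13 to 15, 28 to 30 and 27 to 28 in these 3 comparisons, 28 to 32 for Antisense_hnRNPK, 0 to 31 for Ctrl_hnRNPK and 0 to 27 for CRLM1_hnRNPK.

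For the interaction of CRLM1 minus Ctrl, leaving out the third hnRNPK library of each background gave 9 members (7 with offsets), and leaving out 1 library at a time gave 0. For CRLM1 minus Antisense, DESeq2 gave 1, limma 1 (pseudocount 0.1) or 2 (pseudocount 1), offsets 4 with or without the replicate block, the same omission 10 (13 with offsets), and 1 library left out 0 to 9, the highest without the third CRLM1_hnRNPK library. For Antisense minus Ctrl, it gave 7 with or without offsets, and 1 library left out 0 to 3.

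POLD1 with the construct in the CRLM1 background (-0.16 with all libraries) reversed to 0.10 with offsets, 0.10 with offsets and a replicate block, 0.0149 without the first CRLM1_hnRNPK library (leaving out 1 library gave -0.56 to 0.0149) and 0.0547 with offsets and the third library left out, and passed in none of these. The cause was not tested. Deviations of libraries with the same replicate number correlated at -0.07 to 0.03, so the numbers did not pair the samples, and the replicate block changed no call of a named member.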
